A study of Homo sapiens with 9 samples.

Results

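The comparison of the A20 knockout with wild-type cells was made gene by gene in HCT116, an established human colorectal carcinoma cell line, and it is described here by the pathways and functions of the genes. Its members were the protein-coding genes whose deposited FPKM (mapped fragments relative to gene length and library size) averaged at least 1 over the 3 WT and the 3 A20-KO libraries. That rule kept 10936 of the 19951 protein-coding genes among the 58735 genes of the table. It used the level over both groups, so a gene low in 1 group could enter through the other. The rule favours a change toward the group where such a gene is high, also in the gene lists below. RAPGEF3, for example, averaged 0.121 FPKM in WT and 3.78 FPKM in A20-KO. Among members with a mean from 1 to 3 FPKM, 16.8% rose and 11.5% fell, against 14.9% and 18.6% of all members. Closest to the limit were PCSK7 at 1.001 FPKM on the inside and DGKH at 0.9999 FPKM on the outside.

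RNA-seq was performed on 9 libraries, 3 for each of 3 genotypes. The WT group is wild-type HCT116, labelled A20-WT, and whether it carried a control vector is not given in the sources used here. The A20-KO group is HCT116 in which the gene for A20 was targeted with a LentiCRISPR v2 vector, a lentivirus that carries Cas9 and a guide, followed by puromycin selection. The third group is labelled A20-OE and is called A20-RE here, because the study describes it as A20-KO cells with A20 restored, and an A20 expression plasmid with a CMV promoter is among its reagents. Whether the A20-KO cells were 1 clone or a pool is not given in the sources used here, nor whether the 3 libraries of a group came from separate cultures. The p-values therefore measure the spread between these libraries.

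A20, the product of TNFAIP3, is a ubiquitin-editing enzyme that restrains signalling from TNF and Toll-like receptors to the transcription factor NF-kB. It works with partners such as TNIP1, TAX1BP1, ITCH and RNF11 on the ubiquitin chains that link receptors to the IKK complex. TNFAIP3 is itself induced by NF-kB, which makes it part of a negative feedback loop, and in the gut epithelium A20 is known for protecting cells from TNF-driven death.

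The study designed a pair of guides against human A20, both listed under the same name, and which of them made the A20-KO cells is not given in the sources used here. They are shown because they fix where the gene could have been cut. The first guide matched the plus strand of exon 1 of TNFAIP3 at chr6:137867461-137867480 (GRCh38, GENCODE 29), which is 5′ untranslated there, ahead of the coding sequence that starts in exon 2. Capitals mark its PAM, read from the transcript. The second guide is complementary to the start of exon 3, with 17 of its 20 bases in that exon at chr6:137874845-137874861, over codons 99 to 104 of 790. Capitals mark the bases inside the exon, and the last 3 bases point into the intron.
Guide 1: gggactttgcgaaaggatcgCGG
Guide 2: GAGGCAATTGCCGTCACctg

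TNFAIP3 (ENSG00000118503, chr6:137867188-137883312, plus strand, GRCh38) had 0.869, 0.800 and 0.736 FPKM in the 3 WT libraries and 1.93, 2.16 and 1.04 FPKM in the 3 libraries labelled A20-KO, from 93 to 109 and from 122 to 268 reads. The targeted gene's mRNA was thus higher, not lower, under the A20-KO label, and the groups did not overlap (log2 fold change 0.95, standard error 0.23, limma adjusted p = 0.018). Reads over a gene that was cut can stay, so mRNA level is no measure of the protein, and the direction of every difference below follows the labels. The study also shows A20 levels of its knockout and rescue cells in a figure, whose values are not among the data used here. The call was lost without WT library 2 (limma adjusted p = 0.054) and without the libraries labelled A20-KO 1 (0.070) or A20-KO 2 (0.057), where the log2 fold change was 0.95, 0.83 and 0.75. In A20-RE the gene stood at 60.6 FPKM. Permuting the 6 libraries exactly gave p = 0.1 (two-sided), and 3 against 3 cannot go lower. An exon of AL357060.1 on the opposite strand overlaps TNFAIP3, and whether the counting used strand is not given in the sources used here.

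The 9 libraries held between 23406222 and 24963691 reads, and in 9 of 9 the nearest library by correlation belonged to the same group. WT library 1 stood apart by GC content (the share of G and C bases of a transcript). Its median deviation from the mean of the libraries was 0.39 on the log2 scale in the lowest of 5 GC bins of members and -0.52 in the highest. The library labelled A20-KO 3 deviated the other way, from -0.27 to 0.36. Across the members, the log2 fold change had a Spearman correlation of 0.46 with GC content (10929 genes, which share libraries and are not independent), 0.26 without WT library 1, and 0.00 after a correction for GC content in 50 bins. Counts after that correction are therefore given beside each gene list. Of 12 colorectal epithelial markers 7 were members, with KRT19 up to 1042 FPKM and CDX2 at 5.73 FPKM in WT, whereas VIL1, CDX1, CDH17, GPA33 and LGALS4 stayed under 0.2 FPKM. No lymphoid or myeloid marker of 14, no endothelial marker of 6 and no red cell marker of 5 was a member, and of 10 stromal markers COL1A1 alone was.

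Of the 10936 members, all of which were tested, 1625 rose and 2032 fell in the libraries labelled A20-KO (Benjamini-Hochberg adjusted p under 0.05 from limma), which is 14.9% and 18.6% of them, with a median log2 fold change of -0.06. After the GC correction, 1872 (17.1%) rose and 2552 (23.3%) fell. The share of each gene list is given below to be read against these. Over all 21636 genes tested, of any class, 11.3% were higher and 11% lower by the same rule. With a change of more than 2-fold as a second condition, 495 members rose and 215 fell, and over all genes tested the shares were 4.91% higher and 2.08% lower. After the GC correction, chosen after the data were seen, 287 members rose and 170 fell by more than 2-fold. Fold changes are differences of log2(FPKM + 0.1), a scale on which changes of low genes come out too small. Means are given as mean ± SD of the 3 libraries of a group. Of the 157 genes named by rule, 124 kept their call without the library labelled A20-KO 1, the fewest for any library, and 141 without WT library 1. A gene whose call was lost when 1 of the 9 libraries was left out is marked at the end of its paragraph with those libraries, written as WT 1 or KO 3, and the highest adjusted p reached.

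**Figure D1:**
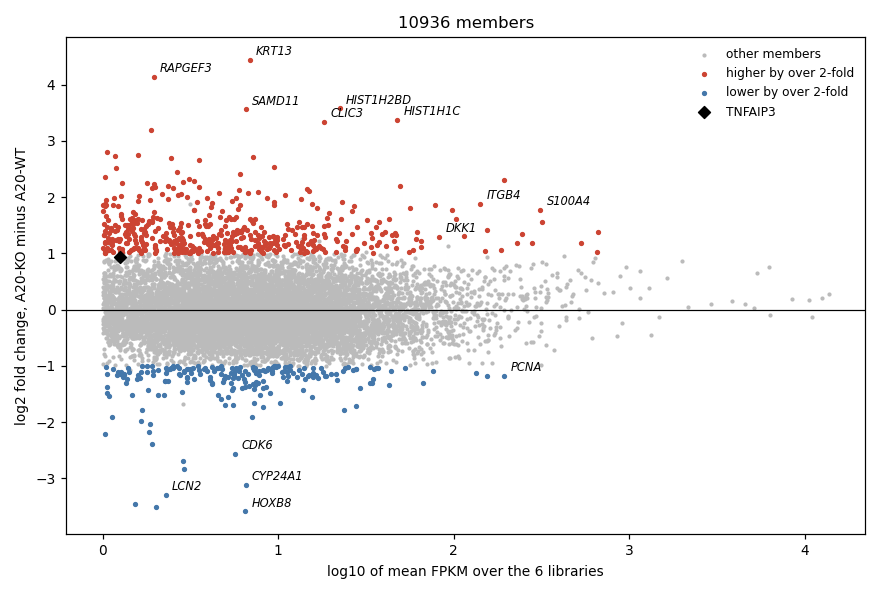
Log2 fold change between the libraries labelled A20-KO and WT (vertical axis) against log10 of the mean FPKM over the 6 libraries (horizontal axis), 1 point per member. The 495 members higher and the 215 lower by more than 2-fold are coloured, and KRT13 at 4.44 and HOXB8 at -3.58 lie at the ends.

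The largest rises were those of KRT13 and RAPGEF3. KRT13, a type I keratin of stratified squamous epithelia, had 0.595, 0.481 and 0.480 FPKM in WT and 13.8, 12.8 and 13.4 FPKM in the libraries labelled A20-KO, where it was 25.6-fold higher. RAPGEF3 encodes Epac1, an exchange factor through which cAMP activates Rap GTPases, and it went from 0.113, 0.142 and 0.106 to 3.80, 3.53 and 4.02 FPKM. For both genes the libraries within a group lay close together and the groups did not overlap (log2 fold changes 4.44, standard error 0.12, limma adjusted p = 5.7e-07, and 4.14, standard error 0.14, adjusted p = 2.4e-06). Both have exons overlapped by genes on the opposite strand. In A20-RE, KRT13 stood at 20.8 and RAPGEF3 at 2.60 FPKM.

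Among the 12 largest rises, 4 were histone genes, described below, and several others encode surface or channel proteins. CLIC3, of the intracellular chloride channel family, was 10.1-fold higher, with 2.23, 2.89 and 4.79 FPKM in WT and 30.4, 27.9 and 41.2 FPKM in the libraries labelled A20-KO (log2 fold change 3.34, standard error 0.27, limma adjusted p = 0.00016). LY6D, a lipid-anchored surface protein of keratinocytes and B-lineage cells, rose from 0.293 ± 0.0843 to 3.50 ± 0.921 FPKM on average, and ASIC4, of the acid-sensing ion channel family, from 0.244 ± 0.108 to 2.10 ± 0.189 FPKM. SAMD11 rose from 0.503, 1.21 and 1.31 to 11.6, 11.3 and 13.7 FPKM (log2 fold change 3.56, standard error 0.28, limma adjusted p = 0.00016), but its exons overlap those of NOC2L on the opposite strand. KIAA1211L and ARMH1 completed the set, at log2 fold changes of 2.80 and 2.75. In all of these the lowest library labelled A20-KO was above the highest WT library, which the rule that named them required.

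The most abundant genes that rose by more than 2-fold were S100A6, KRT19, ID1, CRABP2, S100A4 and PHLDA2. S100A4, a calcium-binding protein linked to cell motility, had 138, 135 and 146 FPKM in WT and 444, 417 and 590 FPKM in the libraries labelled A20-KO (log2 fold change 1.77, standard error 0.16, limma adjusted p = 0.00025). CRABP2, which carries retinoic acid to its nuclear receptors, rose 2.93-fold from 128, 164 and 193 to 446, 432 and 542 FPKM. S100A6 was spread widely within WT, at 193, 465 and 502 FPKM, against 883, 784 and 1138 FPKM, and its lowest value was that of WT library 1. PHLDA2, an imprinted gene, showed the same spread, with 93.4, 194 and 254 FPKM in WT and 351, 333 and 460.3 FPKM in the libraries labelled A20-KO. S100A6 (without KO 1 or KO 3) and PHLDA2 (without WT 1, WT 2, any 1 KO library, RE 1 or RE 2) lost their calls, at limma adjusted p up to 0.07 and 0.12. PHLDA2 came to 0.75 on the log2 scale after the GC correction.

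**Figure D2:**
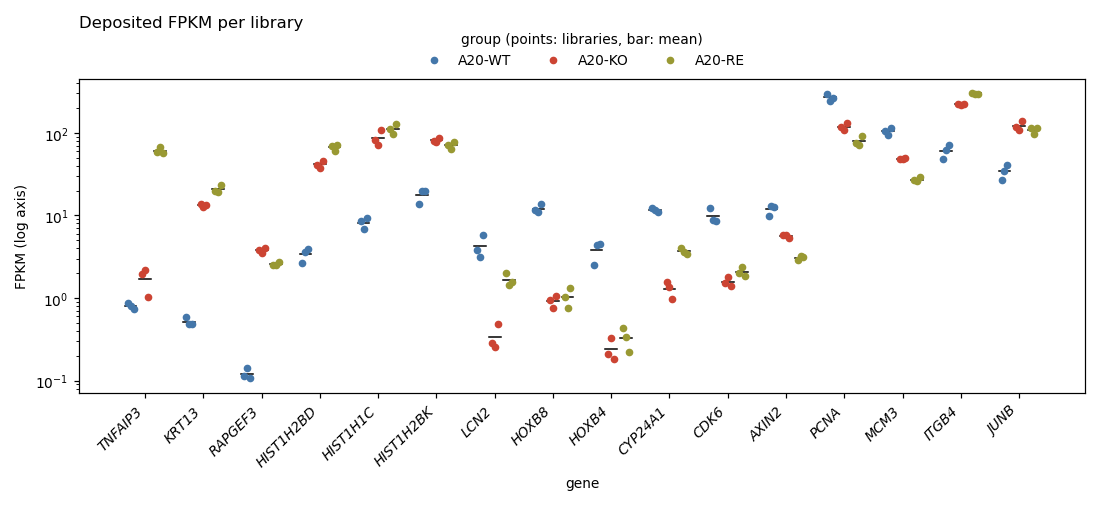
Deposited FPKM on a log axis for 16 members in each library of WT, the libraries labelled A20-KO and A20-RE, where points are libraries and bars are group means. TNFAIP3 is highest in A20-RE at a mean of 60.6 FPKM, the histone genes and KRT13 stand far above WT in the libraries labelled A20-KO, and HOXB8, LCN2 and CDK6 far below.

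The largest falls included a pair of HOXB genes. HOXB8 had 11.5, 10.97 and 13.8 FPKM in WT and 0.943, 0.754 and 1.07 FPKM in the libraries labelled A20-KO, 13.1-fold lower (log2 fold change -3.58, standard error 0.21, limma adjusted p = 4.1e-05). HOXB4 went from 2.53, 4.44 and 4.48 to 0.208, 0.325 and 0.183 FPKM (log2 fold change -3.51, standard error 0.30, limma adjusted p = 0.00019), and its exons overlap those of HOXB3 on the same strand. HOX genes encode homeodomain transcription factors that are laid out in clusters and set position along the body axis. The other genes of the cluster on chromosome 17 were looked at after these values were seen. Of its 8 members 7 fell and HOXB13, at the far end of the cluster, rose, against 18.6% falls and 14.9% rises over all members. HOXB3, HOXB4 and HOXB8 averaged 0.42, 0.24 and 0.92 FPKM in the libraries labelled A20-KO. They are members only through WT, so the level rule favours falls in this count. HOXB3 fell by 1.92, HOXB5 by 1.66, HOXB6 by 1.69, HOXB7 by 0.63 and HOXB9 by 0.77 on the log2 scale, and HOXB13 rose by 0.53. HOXB5, for example, had 11.2, 10.1 and 12.1 FPKM in WT and 3.69, 2.73 and 4.06 FPKM in the libraries labelled A20-KO. Of the 8 members of the HOXA cluster 4 fell, the furthest being HOXA9 at -0.82, and of the 4 HOXC members and the 1 HOXD member none passed in limma or in limma-voom (log2 fold changes from 0.15 to 0.44), with 1 of the 5 higher at an unadjusted p under 0.05. Outside the members, HOXA3 (1.12 FPKM in WT, 0.423 FPKM in the libraries labelled A20-KO) fell by 1.25 (limma adjusted p = 0.010). HOXB2, also outside, did not pass, at -0.26. HOXB8 and HOXB4 stood at 1.03 and 0.328 FPKM in A20-RE.

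**Figure D3:**
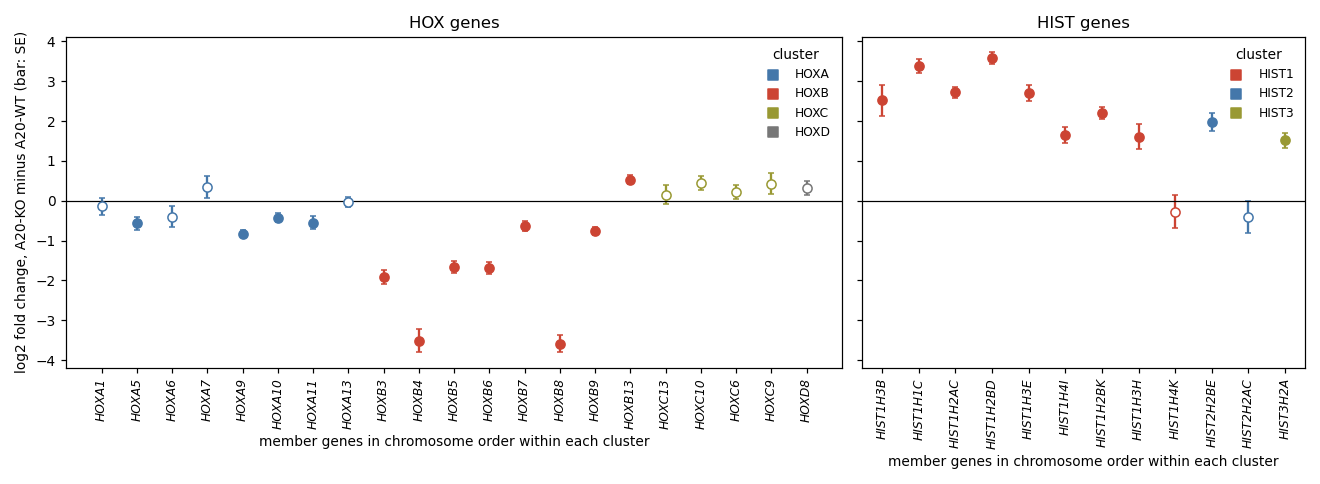
Log2 fold change (libraries labelled A20-KO minus WT) with its standard error for the member HOX genes (left) and HIST genes (right), in chromosome order within each cluster, where filled points passed an adjusted p of 0.05 and open points did not. HOXB8 and HOXB4 lie lowest at -3.58 and -3.51, and 8 of the 9 HIST1 members lie between 1.61 and 3.58.

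The remaining large falls were of secreted, membrane and metabolic proteins and a few regulators. LCN2, a secreted protein that binds bacterial siderophores and a known NF-kB target, had 3.83, 3.15 and 5.73 FPKM in WT and 0.283, 0.255 and 0.483 FPKM in the libraries labelled A20-KO, 12.5-fold lower, on 126 to 229 and 10 to 18 reads. CYP24A1, the enzyme that inactivates vitamin D, fell 9.07-fold from 12.4, 11.7 and 11.1 to 1.55, 1.37 and 0.961 FPKM (log2 fold change -3.11, standard error 0.17, limma adjusted p = 2.5e-05). Each of these genes was low in every library labelled A20-KO. CDK6, the kinase that D-type cyclins activate in G1, had 12.4, 8.75 and 8.45 FPKM in WT and 1.53, 1.78 and 1.38 FPKM in the libraries labelled A20-KO (log2 fold change -2.57, standard error 0.18, limma adjusted p = 8.2e-05). RUNX2, a transcription factor of bone formation, went from 3.17, 3.03 and 3.01 to 0.618, 0.556 and 0.628 FPKM. PODXL2, a sialomucin of the podocalyxin family, DPEP1, a membrane dipeptidase, and PXDN, which cross-links basement membrane collagen, fell by 3.46, 2.83 and 2.68 on the log2 scale. SLC16A6, of the monocarboxylate transporter family, ISM1, a secreted protein, and SEMA3A, a secreted guidance cue, fell by 2.38, 2.21 and 2.03. Levels in A20-RE were 1.68 FPKM for LCN2, 3.68 for CYP24A1, 2.07 for CDK6 and 1.71 for RUNX2.

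Genes of DNA replication and entry into S phase were lower under the A20-KO label. Of 56 members 46 fell and none rose, with a median log2 fold change of -0.88 against -0.06 over all members, and 25 fell by more than 2-fold. The limma fit after the GC correction gave 52 falls and limma-voom on recovered reads 51, with no rise in either and none at an unadjusted p under 0.05. With any 1 of the 9 libraries left out, 43 to 48 fell. PCNA, the sliding clamp of the replication fork, had 294, 246 and 267 FPKM in WT and 119, 109 and 130.3 FPKM in the libraries labelled A20-KO (log2 fold change -1.17, standard error 0.13, limma adjusted p = 0.00055). MCM3, a subunit of the replicative helicase, went from 105, 95.5 and 113 to 48.7, 47.7 and 50.2 FPKM. Beyond CDK6, the furthest fall was that of E2F8, a repressor of the E2F family, at -1.69 (limma adjusted p = 0.00092). Complexes were counted after the values were seen. All 6 MCM helicase subunits fell (log2 fold changes from -1.34 to -0.85), as did all 4 GINS subunits (-1.20 to -0.87) and all 5 subunits of the clamp loader RFC (-1.42 to -0.41). Of 5 condensin subunits, which compact chromosomes for mitosis, 3 fell and 2 did not pass (-1.18 to -0.04). In bulk RNA, fewer cells in S phase and less of these transcripts per cell cannot be told apart. In its own assays, the study reports no effect of A20 level on the proliferation of CRC cells in culture. Whether the A20-KO cells were among those assayed is not given in the sources used here. PCNA and MCM3 stood at 78.7 and 27.2 FPKM in A20-RE.

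Mitosis and kinetochore genes followed, with 48 of 58 members lower and 1 higher (median -0.77). Rises made up 1.72% and falls 82.8% of the list, with 1 rise and 49 falls after the GC correction and 1 rise and 38 to 48 falls with 1 library left out. CDC25A, the phosphatase that activates cyclin-dependent kinases, had 10.8, 12.3 and 12.2 FPKM in WT and 4.14, 3.98 and 4.05 FPKM in the libraries labelled A20-KO (log2 fold change -1.51, standard error 0.09, limma adjusted p = 4.8e-05). CCNA2, the cyclin of S phase and G2, went from 56.0, 46.0 and 44.0 to 20.1, 20.4 and 17.9 FPKM. The exception was CDC25B, a related phosphatase of the G2 to M transition, which rose from 46.6 ± 3.89 to 71.0 ± 4.36 FPKM on average. TUBA1B, an alpha tubulin, was among the most abundant falls, from 226, 192 and 228 to 96.5, 92.0 and 94.1 FPKM (log2 fold change -1.19, standard error 0.10, limma adjusted p = 0.00022), as were ODC1, the rate-limiting enzyme of polyamine synthesis, from 184 ± 7.91 to 83.7 ± 4.30 FPKM, and CSE1L, an export receptor for importin alpha, from 95.7 ± 21.9 to 38.3 ± 1.53 FPKM. CDC25B came to 0.34 on the log2 scale after the GC correction.

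The 250 bases upstream of 2 of these genes are shown because promoters of replication genes are known for sites of E2F factors. Promoter sequences are from RefSeq (GRCh38.p14), written 5′ to 3′ along the gene, and 8938 of the 10936 members matched an entry. Capitals mark the E2F motifs TTTCCCGC and TTTGGCGC and the CCAAT box, each on either strand. MCM6, at chr2:135876444-135876693 (minus strand), and CDC25A, at chr3:48188418-48188667 (minus strand), were taken as genes that fell by more than 2-fold, hold an E2F motif and have no annotated exon in the window.
MCM6: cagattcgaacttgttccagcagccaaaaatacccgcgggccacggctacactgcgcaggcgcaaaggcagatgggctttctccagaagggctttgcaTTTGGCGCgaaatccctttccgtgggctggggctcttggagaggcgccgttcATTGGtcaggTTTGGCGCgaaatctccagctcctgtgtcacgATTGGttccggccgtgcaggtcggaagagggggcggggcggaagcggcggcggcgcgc
CDC25A: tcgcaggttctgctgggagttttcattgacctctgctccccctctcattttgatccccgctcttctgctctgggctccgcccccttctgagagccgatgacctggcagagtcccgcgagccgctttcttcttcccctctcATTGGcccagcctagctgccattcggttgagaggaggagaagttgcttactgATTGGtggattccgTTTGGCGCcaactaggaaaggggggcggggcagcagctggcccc
Either E2F motif was found in 16 of the 45 DNA replication members with a promoter entry (35.6%) and in 4 of 50 mitosis members (8.0%), against 1.96% of all 27305 promoters and 3.32% of all members. The CCAAT box was found in 57.8% and 70.0% of these lists, against 33.0% of all promoters. Either E2F motif was found in 4.6% of the promoters of members that fell and in 1.84% of those that rose. Replication promoters are known for such sites, so the share of that list does not bear on the change. These counts describe letters in a window, and binding of a factor was not measured.

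Most members of the ribosome biogenesis list were lower too. Of 56 ribosome biogenesis and RNA polymerase I members 38 fell and none rose (median -0.55, and 1 was higher at an unadjusted p under 0.05). Rises made up 0% and falls 67.9% of the list, with 0 rises and 43 falls after the GC correction and 0 rises and 30 to 41 falls with 1 library left out. UTP20, a component of the small-subunit processome, had 8.40, 6.46 and 5.89 FPKM in WT and 3.10, 3.06 and 2.22 FPKM in the libraries labelled A20-KO (log2 fold change -1.28, standard error 0.19, limma adjusted p = 0.0019). DDX18, a nucleolar helicase, went from 27.4, 22.4 and 20.8 to 10.9, 10.1 and 9.28 FPKM, and DDX21, another, from 81.6, 69.1 and 61.9 to 37.5, 40.8 and 26.2 FPKM. By contrast, of 81 cytosolic ribosomal protein genes 15 rose and 2 fell (median 0.38). Rises made up 18.5% and falls 2.47% of the list, with 23 rises and 2 falls after the GC correction and 6 to 22 rises and 2 to 3 falls with 1 library left out (the fewest rises without KO 3). The share of rises is near the 14.9% of all members. Limma-voom gave 35 rises and 4 falls, and the fit with the replicate number as a block 34 rises and 3 falls. RPL37 rose from 28.4 ± 5.31 to 55.5 ± 4.90 FPKM and RPS27 from 289 ± 22.4 to 562 ± 84.1 FPKM, and RPL7L1, a ribosomal protein-like factor of ribosome assembly, was among those that fell. Many ribosomal protein genes have processed pseudogenes, and reads may have been split among them.

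Part of the proteasome and cytosolic chaperone genes fell as well. Of 30 proteasome members 17 fell and none rose, also at an unadjusted p under 0.05 (median -0.46), and all 6 ATPase subunits were among the 17. Rises made up 0% and falls 56.7% of the list, with 0 rises and 12 falls after the GC correction and 0 rises and 10 to 18 falls with 1 library left out (the fewest falls without KO 1 or KO 2). PSMD11 and PSMD12, subunits of the regulatory lid, had log2 fold changes of -0.79 (limma adjusted p = 0.00048) and -0.71 (limma adjusted p = 0.0031). Of 40 heat shock and chaperonin members 24 fell and 1 rose (median -0.44). Rises made up 2.5% and falls 60% of the list, with 0 rises and 22 falls after the GC correction and 0 to 1 rises and 15 to 23 falls with 1 library left out (the fewest falls without KO 1). HSPA14, an HSP70 of the ribosome, fell from 11.8 ± 1.43 to 5.53 ± 0.493 FPKM and DNAJC2, its J-domain partner, from 8.57 ± 2.08 to 4.50 ± 0.231 FPKM, while HSPB8, a small heat shock protein, rose from 2.51 ± 0.176 to 3.44 ± 0.289 FPKM (log2 fold change 0.44, standard error 0.14, limma adjusted p = 0.049). Subunits of the CCT ring, which folds tubulin and actin, fell in 7 of 8 cases (log2 fold changes from -0.62 to -0.29). Of 39 chaperones and unfolded protein response genes of the endoplasmic reticulum 6 rose and 2 fell (median 0.06), with MANF, a secreted stress-response protein, at a log2 fold change of 0.94 (limma adjusted p = 0.0074), ERO1B, an oxidase of disulfide formation, at 0.65, and the translocon genes SSR1 and SEC61A1 at -0.49 and -0.46. Rises made up 15.4% and falls 5.13% of the list, with 8 rises and 5 falls after the GC correction and 2 to 7 rises and 0 to 3 falls with 1 library left out (the fewest rises without KO 1 or KO 2 and the fewest falls without KO 1). HSPB8 (without any 1 WT library, any 1 KO library, RE 1 or RE 3), ERO1B (without WT 2, KO 1 or KO 2), SSR1 (without KO 1 or KO 3) and SEC61A1 (without KO 1 or KO 2) lost their calls, at limma adjusted p up to 0.14, 0.081, 0.064 and 0.055. PSMD12 came to -0.43, HSPB8 to 0.34 (not past the test) and SSR1 to -0.26 on the log2 scale after the GC correction.

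Of 44 integrated stress response and amino acid genes 14 fell and 3 rose (median -0.27). Rises made up 6.82% and falls 31.8% of the list, with 6 rises and 21 falls after the GC correction and 1 to 5 rises and 10 to 16 falls with 1 library left out (the fewest rises without KO 1 and the most rises without WT 3). ATF5, a transcription factor of this response, had 8.47, 7.46 and 9.82 FPKM in WT and 3.82, 2.95 and 4.66 FPKM in the libraries labelled A20-KO (log2 fold change -1.17, standard error 0.17, limma adjusted p = 0.0021). MTHFD1, an enzyme of folate metabolism, fell, with a log2 fold change of -0.79 (limma adjusted p = 0.00043). The rises were of regulators, CEBPB from 37.6 ± 14.1 to 73.5 ± 9.77 FPKM and DDIT4, an inhibitor of mTORC1 that hypoxia also induces, from 10.2, 28.8 and 34.4 to 54.3, 41.8 and 55.9 FPKM. WT library 1 held the lowest DDIT4 value by a wide margin, and without it the log2 fold change was 0.67 in place of 1.21. CEBPB (without KO 1 or KO 3) and DDIT4 (without WT 2, any 1 KO library or any 1 RE library) lost their calls, at limma adjusted p up to 0.072 and 0.14. CEBPB came to 0.57 on the log2 scale after the GC correction.

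Histone genes were higher where the replication genes were lower. Of the 24 genes of the histone list 14 were members, and of these 8 rose and 1 fell (median 1.11). Rises made up 57.1% and falls 7.14% of the list, with 8 rises and 1 fall after the GC correction and 7 to 9 rises and 0 to 1 falls with 1 library left out. HIST1H2BD, a histone H2B gene, had 2.68, 3.63 and 3.90 FPKM in WT and 40.8, 37.1 and 46.2 FPKM in the libraries labelled A20-KO, 12.2-fold higher (log2 fold change 3.58, standard error 0.15, limma adjusted p = 9.1e-06). HIST1H1C, which encodes linker histone H1.2, rose from 8.47, 6.92 and 9.22 to 82.2, 70.7 and 108 FPKM. HIST1H2AC, a histone H2A gene, and HIST1H3E, a histone H3 gene outside the list, rose from 1.83 ± 0.299 to 12.5 ± 0.751 FPKM and from 0.604 ± 0.233 to 4.32 ± 0.240 FPKM. For each of these genes the groups did not overlap, which the rule that named them as largest rises required.

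A count over all HIST genes, made after these values were seen, gave 8 rises among the 9 HIST1 members on chromosome 6, 1 among 2 HIST2 members on chromosome 1 and the single HIST3 member, HIST3H2A, which rose by 1.51. None of the 12 fell, and HIST1H4K and HIST2H2AC did not pass (log2 fold changes -0.27 and -0.41). HIST1H3B, HIST1H3E, HIST1H3H and HIST2H2BE averaged 0.325, 0.604, 0.584 and 0.414 FPKM in WT. They are members only through the libraries labelled A20-KO, so the level rule favours rises in this count. In all, 31 HIST1 genes were tested. HIST1H2BK, the most abundant, had 13.6, 19.5 and 19.9 FPKM in WT and 79.6, 77.0 and 86.0 FPKM in the libraries labelled A20-KO. Among 5 variant histone genes outside these clusters, H2AFV fell from 31.9 ± 1.35 to 26.0 ± 0.610 FPKM and H2AFZ, H2AFX, H3F3A and H3F3B did not pass (log2 fold changes from -0.23 to 0.16), while H2AFX passed after the GC correction at -0.47. Transcripts of clustered histone genes usually end in a stem-loop without a poly(A) tail, and the libraries were made from RNA captured with poly-T beads, so the values cover the polyadenylated transcripts of these genes. The proteins and much of the sequence of these genes are near identical, and the counting could have split reads among them. In A20-RE, HIST1H2BD stood at 66.6, HIST1H1C at 112 and HIST1H2BK at 71.0 FPKM. Of the histone factors in the replication list, SLBP, which binds that stem-loop, had a log2 fold change of -0.75 (limma adjusted p = 0.00057), and it is named here after its value was seen. In that list 46 of 56 members fell, with a median of -0.88, and a link between SLBP and the histone genes was not tested. H2AFV lost its call without WT 2, KO 1, KO 2 or RE 1 (limma adjusted p up to 0.074). H2AFV came to -0.13 (not past the test) on the log2 scale after the GC correction.

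The upstream regions of a pair of H2B genes are shown because clustered histone promoters are known for a TATA box, CCAAT boxes and an octamer. Capitals mark the TATA box (as TATAAA), the CCAAT box and the octamer (as ATTTGCAT) on either strand, and where copies of the TATA motif on opposite strands overlap they run together. HIST1H2BD lies downstream of chr6:26157871-26158120 (plus strand) and HIST1H2BK of chr6:27146859-27147108 (minus strand).
HIST1H2BD: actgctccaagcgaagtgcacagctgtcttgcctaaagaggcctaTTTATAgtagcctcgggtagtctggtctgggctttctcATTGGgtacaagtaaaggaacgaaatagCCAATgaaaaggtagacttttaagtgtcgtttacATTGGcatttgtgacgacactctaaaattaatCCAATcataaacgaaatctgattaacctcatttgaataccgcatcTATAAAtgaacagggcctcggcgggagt
HIST1H2BK: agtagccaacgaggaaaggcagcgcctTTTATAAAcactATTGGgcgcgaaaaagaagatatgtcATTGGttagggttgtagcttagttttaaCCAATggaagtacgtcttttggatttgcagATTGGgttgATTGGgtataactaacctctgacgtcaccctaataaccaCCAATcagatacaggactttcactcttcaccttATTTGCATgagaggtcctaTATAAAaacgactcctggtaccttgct
Of the 12 HIST members, all of which have a promoter entry, 11 held the CCAAT box (91.7%), 9 the TATA motif (75.0%) and 4 the octamer (33.3%). Over all 27305 promoters the shares were 33.0%, 11.1% and 1.66%. Clustered histone promoters are known for these motifs, so the counts do not bear on the change.

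Most keratin members were higher under the A20-KO label. Of the 24 keratins listed 10 were members, of which 6 rose and 1 fell (median 0.91). KRT13 and KRT20, each under 1 FPKM in every WT library, are members only through the libraries labelled A20-KO, and both count among the rises. Rises made up 60% and falls 10% of the list, with 6 rises and 1 fall after the GC correction and 6 to 7 rises and 1 fall with 1 library left out. Beside KRT13, KRT20, a keratin of differentiated intestinal cells, rose 5.03-fold from 0.698, 0.867 and 0.780 to 3.79, 4.23 and 3.77 FPKM (log2 fold change 2.19, standard error 0.12, limma adjusted p = 2.9e-05). KRT19, a keratin of simple epithelia, went from 376, 395 and 529.7 to 832, 759 and 1042 FPKM, with WT library 3 closest to the other group. KRT80 fell from 4.59 ± 0.379 to 2.85 ± 0.395 FPKM and stood at 12.9 FPKM in A20-RE. Of 40 genes of junctions and adhesion 13 rose and 4 fell (median 0.12). Rises made up 32.5% and falls 10% of the list, with 17 rises and 4 falls after the GC correction and 11 to 15 rises and 2 to 4 falls with 1 library left out (the fewest falls without WT 2). ITGB4, the integrin chain of hemidesmosomes, had 48.5, 62.0 and 72.2 FPKM in WT and 225, 219 and 224 FPKM in the libraries labelled A20-KO (log2 fold change 1.89, standard error 0.14, limma adjusted p = 0.00013). TJP3, a tight junction scaffold, rose from 7.49, 8.86 and 10.6 to 30.4, 25.8 and 33.3 FPKM. LAMA3, a chain of the laminin that hemidesmosomes bind, and ESRP2, an epithelial splicing regulator, fell, with log2 fold changes of -0.64 (limma adjusted p = 0.028) and -0.52 (limma adjusted p = 0.0064). LAMA3 lost its call without any 1 WT library, KO 1, KO 3 or RE 1 (limma adjusted p up to 0.078). ESRP2 came to -0.84 on the log2 scale after the GC correction.

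The genes of intestinal identity gave no common direction. Of 49 intestinal transcription factors and differentiation genes listed only 13 were members, and 3 rose and 3 fell (median -0.16). Rises made up 23.1% and falls 23.1% of the list, with 3 rises and 4 falls after the GC correction and 2 to 3 rises and 1 to 3 falls with 1 library left out (the fewest falls without WT 2, KO 1 or KO 3). KLF4, a factor of goblet cell differentiation, rose from 15.2 ± 2.76 to 27.2 ± 2.15 FPKM and HES1, the Notch target, from 8.54 ± 1.43 to 14.4 ± 1.43 FPKM. DPP4, a brush-border peptidase, fell from 4.005, 3.10 and 3.16 to 1.56, 1.68 and 1.58 FPKM (log2 fold change -1.03, standard error 0.13, limma adjusted p = 0.00096), and KLF6 fell, with a log2 fold change of -0.45 (limma adjusted p = 0.022). Of 25 intestinal stem cell and Wnt target genes 6 rose and 6 fell (median 0.16). Rises made up 24% and falls 24% of the list, with 8 rises and 8 falls after the GC correction and 4 to 7 rises and 2 to 6 falls with 1 library left out (the fewest falls without KO 3). The rises were led by secreted Wnt antagonists, NOTUM, which removes the lipid from Wnt, from 6.94, 10.6 and 11.8 to 37.1, 32.3 and 39.6 FPKM, and DKK1, which blocks the LRP co-receptor, from 45.6, 48.2 and 49.6 to 123, 112 and 119 FPKM (log2 fold change 1.30, standard error 0.08, limma adjusted p = 6.8e-05). AXIN2, the feedback inhibitor that Wnt signalling induces, fell from 9.80, 13.0 and 12.6 to 5.72, 5.85 and 5.30 FPKM (log2 fold change -1.04, standard error 0.12, limma adjusted p = 0.00077), and DKK4 from 2.53 ± 0.123 to 1.47 ± 0.216 FPKM. Of 38 mesenchymal genes listed 16 were members, and 7 rose and 3 fell (median 0.40). Rises made up 43.8% and falls 18.8% of the list, with 7 rises and 3 falls after the GC correction and 7 to 8 rises and 2 to 3 falls with 1 library left out. COL1A1 and COL6A1, fibrillar and microfibrillar collagens, rose from 5.32 ± 0.668 to 13.3 ± 1.41 FPKM and from 29.98 ± 5.16 to 63.4 ± 3.48 FPKM, whereas THBS1, a matrix glycoprotein, fell, with a log2 fold change of -0.79 (limma adjusted p = 0.023). The 10 stromal markers summed to between 5.08 and 6.48 FPKM in WT and between 13.4 and 16.5 FPKM in the libraries labelled A20-KO, most of it COL1A1. The part of other cells in these sums was not tested. HES1 (without KO 3), KLF6 (without WT 1, WT 2, KO 1 or KO 3), DKK4 (without any 1 WT library, KO 2 or KO 3) and THBS1 (without WT 2) lost their calls, at limma adjusted p up to 0.051, 0.062, 0.085 and 0.074. COL6A1 came to 0.66 on the log2 scale after the GC correction.

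Of 29 members of the A20 list, its partners and the ubiquitin-editing genes of the NF-kB pathway, 2 rose and 2 fell (median -0.06). Rises made up 6.9% and falls 6.9% of the list, with 5 rises and 6 falls after the GC correction and 1 to 3 rises and 0 to 2 falls with 1 library left out (the fewest falls without KO 3). Beside TNFAIP3, RBCK1, a subunit of the linear ubiquitin ligase LUBAC, rose from 14.9, 16.7 and 19.6 to 25.6, 24.9 and 32.3 FPKM (log2 fold change 0.69, standard error 0.13, limma adjusted p = 0.0065). TNFAIP3, under 1 FPKM in every WT library, is a member only through the libraries labelled A20-KO. CHUK, which encodes the kinase IKK alpha, and MALT1, a protease that cleaves A20, fell, with log2 fold changes of -0.60 (limma adjusted p = 0.019) and -0.54 (limma adjusted p = 0.038). The partners named above, TNIP1, TAX1BP1, ITCH and RNF11, had log2 fold changes from -0.24 to 0.27 and did not pass, with their groups overlapping. They are named after their values were seen. RNF11 passed after the GC correction, at 0.34, and TAX1BP1 without WT library 1 (limma adjusted p = 0.029). CHUK (without WT 1, WT 2 or KO 3) and MALT1 (without KO 1, KO 3 or any 1 RE library) lost their calls, at limma adjusted p up to 0.054 and 0.11. RBCK1 came to 0.29, CHUK to -0.34 and MALT1 to -0.33 on the log2 scale after the GC correction.

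NF-kB transcription factors and target genes moved both ways. Of 26 members 8 rose and 4 fell (median 0.20). Rises made up 30.8% and falls 15.4% of the list, with 8 rises and 6 falls after the GC correction and 7 to 10 rises and 4 falls with 1 library left out. NFKBIA, the classical IkB alpha and a direct target, rose from 6.82, 8.97 and 10.7 to 18.1, 16.9 and 18.3 FPKM (log2 fold change 1.03, standard error 0.16, limma adjusted p = 0.0027). BCL3, an atypical IkB protein, rose from 3.60, 4.44 and 5.90 to 11.1, 10.3 and 13.2 FPKM (log2 fold change 1.31, standard error 0.17, limma adjusted p = 0.0012). ICAM1, an adhesion receptor for leukocytes, fell from 1.71, 2.32 and 2.73 to 0.777, 0.692 and 0.660 FPKM (log2 fold change -1.52, standard error 0.19, limma adjusted p = 0.00093), and LCN2, given above, fell furthest. Every WT library was above every library labelled A20-KO for ICAM1, and it stood at 0.678 FPKM in A20-RE. ICAM1 and LCN2, each under 1 FPKM in every library labelled A20-KO, are members only through WT, and both count among the falls. A kB motif written as GGNNTTTCC was found within 250 bases upstream in 9 of the 21 listed members with a promoter entry (42.9%), against 5.48% of all promoters and 5.73% of those of members. The list was made of known factors and targets, so this share does not bear on the change. The motif was found in 7.16% of members that fell and 5.45% of members that rose. BCL3 came to 0.73 on the log2 scale after the GC correction.

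Of 26 interferon response genes 7 rose and 2 fell, with a median of 0.01. Rises made up 26.9% and falls 7.69% of the list, with 8 rises and 3 falls after the GC correction and 4 to 7 rises and 0 to 1 falls with 1 library left out (the fewest rises without WT 1, WT 2, KO 1 or KO 3 and the fewest falls without WT 2, KO 1, KO 3, RE 1 or RE 3). IFITM1, a membrane protein that restricts virus entry, had 0.559, 0.334 and 0.296 FPKM in WT and 1.94, 1.21 and 1.83 FPKM in the libraries labelled A20-KO (log2 fold change 1.83, standard error 0.25, limma adjusted p = 0.0013), and IFI6, another interferon-induced membrane protein, 13.6, 15.96 and 16.3 and 32.4, 25.1 and 40.2 FPKM. IFITM1, under 1 FPKM in every WT library, is a member only through the libraries labelled A20-KO, and it counts among the rises. ZC3HAV1, an antiviral RNA-binding protein, and USP18, which removes ISG15, fell, with log2 fold changes of -0.58 (limma adjusted p = 0.049) and -0.49 (limma adjusted p = 0.037). Of 17 genes of MHC class I presentation 7 rose and 1 fell (median 0.38). Rises made up 41.2% and falls 5.88% of the list, with 7 rises and 2 falls after the GC correction and 5 to 7 rises and 1 fall with 1 library left out. HLA-F, a nonclassical class I gene, rose 2.97-fold from 1.39, 1.58 and 1.65 to 3.90, 4.52 and 5.31 FPKM (log2 fold change 1.50, standard error 0.15, limma adjusted p = 0.00038), and PSMB9, an immunoproteasome subunit, from 1.67 ± 0.321 to 2.85 ± 0.505 FPKM. TAP2, a chain of the peptide transporter, fell from 5.82 ± 0.156 to 3.76 ± 0.199 FPKM. HLA genes resemble one another and vary between cell lines, so reads may be split or lost among them. ZC3HAV1 (without any 1 WT library, KO 1, KO 3 or any 1 RE library), USP18 (without any 1 WT library, any 1 KO library, RE 1 or RE 3) and PSMB9 (without WT 1, WT 2, KO 1 or KO 3) lost their calls, at limma adjusted p up to 0.14, 0.1 and 0.09.

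Of 22 surface signals to macrophages and lymphocytes 4 rose and 4 fell (median 0.12). Rises made up 18.2% and falls 18.2% of the list, with 9 rises and 4 falls after the GC correction and 3 to 6 rises and 3 to 5 falls with 1 library left out. LGALS3, the lectin galectin-3, rose from 13.5, 14.1 and 16.1 to 33.2, 29.5 and 39.6 FPKM (log2 fold change 1.22, standard error 0.13, limma adjusted p = 0.00045). LRP1, the receptor through which phagocytes read calreticulin, rose from 1.30 ± 0.243 to 2.70 ± 0.308 FPKM in these tumour cells, and PVR, a ligand of NK cell receptors, fell from 24.3 ± 1.85 to 15.7 ± 1.03 FPKM. CD47, the signal against phagocytosis, and CALR, which encodes calreticulin, did not pass, at log2 fold changes of 0.32 and -0.24, and both are named after their values were seen. With the GC correction both passed, at 0.52 and -0.34. Of 33 apoptosis and necroptosis genes 9 fell and 3 rose (median -0.18). Rises made up 9.09% and falls 27.3% of the list, with 3 rises and 8 falls after the GC correction and 3 to 5 rises and 4 to 10 falls with 1 library left out (the most rises without WT 3 and the fewest falls without KO 1). MLKL, the executioner of necroptosis, fell from 2.71, 2.54 and 2.49 to 1.48, 1.14 and 1.49 FPKM (log2 fold change -0.88, standard error 0.15, limma adjusted p = 0.0036), and CASP2, an initiator caspase, from 12.5 ± 1.69 to 7.44 ± 0.568 FPKM. BMF, a BH3-only protein, rose from 0.562, 0.529 and 0.536 to 1.70, 1.39 and 1.43 FPKM, and TRADD, the adaptor of TNF receptor 1, from 7.43 ± 1.54 to 12.7 ± 1.85 FPKM. BMF, under 1 FPKM in every WT library, is a member only through the libraries labelled A20-KO. Of 37 p53 targets 7 rose and 9 fell (median -0.14), with GDF15, a secreted stress cytokine, highest at 105, 134 and 179.5 FPKM in WT and 351, 307 and 387 FPKM in the libraries labelled A20-KO. Rises made up 18.9% and falls 24.3% of the list, with 7 rises and 10 falls after the GC correction and 5 to 8 rises and 6 to 9 falls with 1 library left out. SERTAD1, a regulator of CDK4, rose, with a log2 fold change of 0.93 (limma adjusted p = 0.0098), and POLH, a translesion polymerase, and AEN, a nuclease, fell, with log2 fold changes of -0.86 (limma adjusted p = 0.0013) and -0.75 (limma adjusted p = 0.0012). TRADD came to 0.32 on the log2 scale after the GC correction.

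Immediate early genes of the ERK pathway were higher in part. Of 39 members 16 rose and 4 fell (median 0.27). Rises made up 41% and falls 10.3% of the list, with 16 rises and 4 falls after the GC correction and 11 to 17 rises and 0 to 4 falls with 1 library left out (the fewest falls without WT 2, KO 1 or RE 1). JUNB, a component of the transcription factor AP-1, had 26.8, 34.2 and 41.2 FPKM in WT and 118, 109.8 and 139 FPKM in the libraries labelled A20-KO (log2 fold change 1.85, standard error 0.16, limma adjusted p = 0.00021). FOS, its partner, rose from 2.65, 3.36 and 3.57 to 9.30, 7.41 and 7.99 FPKM, whereas FOSL1, another FOS family gene, fell from 39.7, 54.9 and 69.6 to 30.7, 27.9 and 38.5 FPKM (log2 fold change -0.73, standard error 0.21, limma adjusted p = 0.034). ETV1, an ETS factor, fell, with a log2 fold change of -0.53 (limma adjusted p = 0.029). Of 33 genes of TGF-beta and BMP signalling 9 rose and 3 fell (median 0.09). Rises made up 27.3% and falls 9.09% of the list, with 10 rises and 5 falls after the GC correction and 7 to 11 rises and 0 to 3 falls with 1 library left out (the fewest falls without WT 2 or KO 3). The BMP targets ID1 and ID3, inhibitors of bHLH factors, rose from 349, 275 and 342 to 678, 635 and 907 FPKM and from 40.2, 41.2 and 51.5 to 150.4, 130.3 and 174 FPKM (ID3 log2 fold change 1.77, standard error 0.15, limma adjusted p = 0.00021). TGFBR2, a receptor, and BMP7, a ligand, fell, with log2 fold changes of -0.62 (limma adjusted p = 0.02) and -0.60 (limma adjusted p = 0.025). Of 26 YAP and TEAD genes 3 rose and 5 fell (median -0.26), with TEAD1 and CTGF, a DNA-binding factor and its classical target, at log2 fold changes of -0.75 and -0.64, and GADD45A and TEAD3 at 0.68 and 0.50. Rises made up 11.5% and falls 19.2% of the list, with 4 rises and 10 falls after the GC correction and 2 to 3 rises and 3 to 6 falls with 1 library left out (the fewest falls without WT 2 or KO 3). FOSL1 (without WT 2, WT 3, KO 1, KO 2, RE 1 or RE 2), ETV1 (without WT 1, WT 2, KO 1, KO 3 or RE 1), TGFBR2 (without WT 1, WT 2 or KO 3), BMP7 (without WT 2, WT 3, KO 1 or KO 3) and TEAD1 (without WT 1, WT 2, KO 1, KO 3 or RE 1) lost their calls, at limma adjusted p up to 0.1, 0.088, 0.059, 0.079 and 0.098. ETV1 came to -0.33 and TEAD3 to 0.18 (not past the test) on the log2 scale after the GC correction.

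Beside RAPGEF3, no member of its pathway passed with a change of more than 2-fold. Of 37 members of cAMP, Epac and Rap signalling 4 rose and 6 fell (median -0.01). RAPGEF3, counted among the rises, is a member only through the libraries labelled A20-KO. Rises made up 10.8% and falls 16.2% of the list, with 4 rises and 9 falls after the GC correction and 1 to 5 rises and 5 to 7 falls with 1 library left out (the fewest rises without KO 1). RAP1GAP, which switches Rap1 off, rose from 4.96 ± 1.19 to 7.56 ± 0.302 FPKM (log2 fold change 0.62, standard error 0.17, limma adjusted p = 0.029). PRKACB and PRKAR2A, a catalytic and a regulatory subunit of protein kinase A, fell from 16.2 ± 3.78 to 9.19 ± 1.16 FPKM and from 12.7 ± 0.893 to 7.69 ± 1.67 FPKM. RAP1GAP lost its call without WT 1, WT 2, any 1 KO library or RE 1 (limma adjusted p up to 0.087). RAP1GAP came to 0.27 (not past the test) and PRKACB to -0.51 on the log2 scale after the GC correction.

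Of 30 hypoxia-induced genes 16 rose and 1 fell (median 0.39). Rises made up 53.3% and falls 3.33% of the list, with 16 rises and 1 fall after the GC correction and 9 to 15 rises and 0 to 2 falls with 1 library left out (the fewest rises without WT 2 or KO 1). ANGPTL4, a secreted inhibitor of lipoprotein lipase, rose from 9.46, 12.3 and 14.3 to 37.9, 35.9 and 48.6 FPKM (log2 fold change 1.76, standard error 0.18, limma adjusted p = 0.00037). ANKRD37, a small ankyrin-repeat protein, went from 2.28, 1.86 and 2.51 to 8.32, 7.58 and 10.4 FPKM. The only fall in the list was that of HIF1A, the oxygen-regulated transcription factor itself, from 48.4, 31.0 and 29.1 to 23.8, 24.9 and 20.4 FPKM (log2 fold change -0.62, standard error 0.18, limma adjusted p = 0.036). Of 32 glycolysis and pentose phosphate genes 8 rose and 4 fell (median 0.11). Rises made up 25% and falls 12.5% of the list, with 7 rises and 6 falls after the GC correction and 3 to 11 rises and 2 to 4 falls with 1 library left out (the fewest rises without WT 2, KO 1 or RE 1 and the fewest falls without WT 2). The isozymes ALDOC and ENO2 rose from 19.1 ± 3.79 to 52.6 ± 6.60 FPKM and from 14.9 ± 1.80 to 41.4 ± 4.75 FPKM, while SLC16A1, a lactate transporter, and HK2, the hexokinase of many tumours, fell from 37.3 ± 5.10 to 20.9 ± 2.18 FPKM and from 22.0 ± 0.961 to 15.6 ± 2.41 FPKM. HIF1A (without WT 2, any 1 KO library or any 1 RE library) and HK2 (without WT 2) lost their calls, at limma adjusted p up to 0.12 and 0.053. HIF1A came to -0.35 on the log2 scale after the GC correction.

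Of 31 genes of cholesterol synthesis and uptake 10 rose and 1 fell (median 0.32). Rises made up 32.3% and falls 3.23% of the list, with 14 rises and 2 falls after the GC correction and 9 to 14 rises and 0 to 1 falls with 1 library left out. TM7SF2, a sterol reductase, rose from 7.72, 10.4 and 13.3 to 24.7, 23.3 and 30.7 FPKM (log2 fold change 1.34, standard error 0.19, limma adjusted p = 0.0016), and its level in A20-RE was 11.9 FPKM. TMEM97, a regulator of cholesterol transport, fell from 27.3 ± 3.05 to 19.1 ± 1.45 FPKM. Of 35 fatty acid and lipid genes 7 rose and 4 fell (median 0.06), with FADS3, a desaturase family gene, and PPARD, a lipid-sensing nuclear receptor, at log2 fold changes of 0.92 and 0.80, and GPAM, an acyltransferase, and PLIN2, a lipid droplet coat protein, at -0.62 and -0.55. Rises made up 20% and falls 11.4% of the list, with 8 rises and 5 falls after the GC correction and 5 to 8 rises and 3 to 4 falls with 1 library left out. Of 38 NRF2, redox and ferroptosis genes 8 rose and 6 fell (median -0.02). Rises made up 21.1% and falls 15.8% of the list, with 9 rises and 6 falls after the GC correction and 6 to 8 rises and 3 to 5 falls with 1 library left out (the fewest falls without WT 2 or any 1 KO library). ABCC3, an organic anion exporter, rose 4.51-fold from 1.79, 2.46 and 2.30 to 9.80, 9.90 and 9.81 FPKM (log2 fold change 2.13, standard error 0.12, limma adjusted p = 3.4e-05), and HMOX1, heme oxygenase 1, from 10.6 ± 2.77 to 19.9 ± 2.48 FPKM. SOD2, the mitochondrial superoxide dismutase, and SLC7A11, the cystine importer, fell, with log2 fold changes of -0.67 (limma adjusted p = 0.003) and -0.59 (limma adjusted p = 0.039). TMEM97 (without KO 1), GPAM (without WT 1, WT 2 or KO 3) and SLC7A11 (without WT 1, WT 2, any 1 KO library, RE 1 or RE 2) lost their calls, at limma adjusted p up to 0.052, 0.072 and 0.12. GPAM came to -0.37, SOD2 to -0.44 and SLC7A11 to -0.32 (not past the test) on the log2 scale after the GC correction.

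Of 50 autophagy and lysosome genes 14 rose and 2 fell (median 0.18). Rises made up 28% and falls 4% of the list, with 15 rises and 4 falls after the GC correction and 9 to 15 rises and 0 to 3 falls with 1 library left out (the fewest rises without KO 1 or KO 3 and the fewest falls without KO 1). OPTN, an autophagy receptor that also binds ubiquitin chains of the NF-kB pathway, rose from 3.99, 3.54 and 3.12 to 8.92, 8.88 and 8.26 FPKM (log2 fold change 1.27, standard error 0.11, limma adjusted p = 0.00018), and ATG16L2, a paralog of an autophagy core protein, from 1.50 ± 0.280 to 3.54 ± 0.394 FPKM. ATG12, a ubiquitin-like conjugate of autophagosome formation, fell from 9.86 ± 1.34 to 7.38 ± 0.375 FPKM. Of 24 iron-handling genes 3 rose and 5 fell, LCN2 among them (median -0.11), with CYBRD1 and STEAP1, of metalloreductase families, at log2 fold changes of 0.54 and -0.69. LCN2 is a member only through WT. Rises made up 12.5% and falls 20.8% of the list, with 4 rises and 5 falls after the GC correction and 2 to 3 rises and 2 to 5 falls with 1 library left out (the fewest falls without WT 2, KO 1 or RE 1). Of 21 metallothionein and metal transport genes none rose in limma and 5 fell (median -0.16), while 2 were higher at an unadjusted p under 0.05 and 2 in limma-voom. Rises made up 0% and falls 23.8% of the list, with 1 rise and 5 falls after the GC correction and 0 to 1 rises and 3 to 6 falls with 1 library left out (the fewest falls without WT 2, WT 3 or KO 1). MT1E, a metallothionein, had 263, 156 and 160.4 FPKM in WT and 80.8, 103 and 108 FPKM in the libraries labelled A20-KO, with WT library 1 the highest by far, and SLC30A6, a zinc exporter, fell, with a log2 fold change of -0.78 (limma adjusted p = 0.0027). ATG12 (without WT 2 or any 1 KO library), CYBRD1 (without WT 2, WT 3, KO 1, KO 2 or RE 1), STEAP1 (without KO 1) and MT1E (without KO 1) lost their calls, at limma adjusted p up to 0.08, 0.1, 0.064 and 0.066. ATG12 came to -0.12 (not past the test) and SLC30A6 to -0.50 on the log2 scale after the GC correction.

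None of the 13 protein genes of the mitochondrial genome passed in limma (median 0.17, log2 fold changes from -0.13 to 0.75), 2 were higher at an unadjusted p under 0.05, and 2 rose in limma-voom on recovered reads. The mitochondrial genome took between 7.52% and 10.1% of the reads in WT and between 9.18% and 11.9% in the libraries labelled A20-KO. Of 74 nuclear-encoded respiratory chain genes 3 rose and 5 fell (median 0.05), with COX5B and COX6C, of complex IV, at log2 fold changes of 0.69 and 0.64, and NDUFA10 and NDUFS3, of complex I, at -0.50 and -0.46. Rises made up 4.05% and falls 6.76% of the list, with 7 rises and 4 falls after the GC correction and 1 to 4 rises and 1 to 5 falls with 1 library left out (the fewest rises without KO 3 and the fewest falls without KO 1 or RE 1). Of 76 mitochondrial ribosomal protein genes 1 rose and 13 fell (median -0.19), the rise being that of MRPS6 at a log2 fold change of 0.76 (limma adjusted p = 0.028) and the largest falls those of MRPL3 and MRPL39 at -0.72 and -0.69. Rises made up 1.32% and falls 17.1% of the list, with 2 rises and 15 falls after the GC correction and 0 to 1 rises and 3 to 14 falls with 1 library left out (the fewest falls without KO 1). COX5B (without KO 1 or KO 3), NDUFS3 (without WT 1, WT 3, KO 1, KO 2 or RE 1) and MRPS6 (without WT 2, WT 3 or any 1 KO library) lost their calls, at limma adjusted p up to 0.08, 0.12 and 0.098.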

How the data were processed

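Per the submitters' processing notes, reads were aligned with HISAT2 2.0.5 and counted with featureCounts 1.5.0-p3, and the authors deposited FPKM per gene, with gene lengths as other values. With the deposited gene lengths, the values gave whole reads within 0.1 read for 100% of genes in each library, and these recovered reads give the depth. Log2(FPKM + 0.1) was fitted with limma 3.58.1 (R 4.3.3) over all 9 libraries after genes under a mean FPKM of 0.1 were dropped, contrasting A20-KO with WT, with Benjamini-Hochberg adjustment over 21636 genes. A gene rose or fell at an adjusted p under 0.05. The members and gene lists were chosen with earlier results of these data known. Named genes were TNFAIP3, KRT13, RAPGEF3 and LCN2. To these were added, among members past 2-fold without overlap of the groups, the 12 largest rises and falls and the 6 most abundant in each direction, and in each list up to 2 largest rises and falls past the adjusted p. Genes outside this rule are said to be chosen afterwards. Some genes that the rule names are not reported here. Sequences and tables were handled in Python 3.11.15. Alternatives covered pseudocounts, filters, scaling, the libraries fitted, a replicate block, limma-voom on recovered reads and, chosen after seeing the data, a correction for transcript GC content.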

Additional observations from a re-analysis of the deposited data

How the results depend on the processing

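Members past 2-fold numbered 495 higher and 215 lower. With a pseudocount of 1 they numbered 265 and 104, and with an absolute log2 fold change above 2 they numbered 44 and 12. The GC correction, chosen after the data were seen, gave 287 higher, 289 with the replicate block and 267 with WT library 1 left out. Leaving out 1 library gave 359 to 635 higher and 147 to 277 lower, with the lowest of both without WT library 1. Members past the adjusted p, 1625 higher and 2032 lower, fell to 1008 and 1244 when only the 6 libraries of both groups were fitted, which leaves fewer residual degrees of freedom. With 1 library left out they ranged from 1041 to 1859 and from 1295 to 1992, with the lowest of both, 1041 and 1295, without the library labelled A20-KO 1. TNFAIP3 did not pass in the fit of 6 libraries (log2 fold change 0.95, limma adjusted p = 0.083), and its log2 fold change ranged from 0.75 to 1.25 with 1 library left out. The replicate block gave 494 higher and 215 lower past 2-fold and 1903 and 2426 past the adjusted p. Same-numbered WT and A20-KO libraries had deviations that correlated at 0.02, 0.02 and 0.33 over 12796 genes, so the numbers were not taken to pair the samples. Of the 157 genes named by rule, 119 passed in the fit of 6 libraries, 151 after the GC correction, 156 with the block, all but DDIT4 (limma adjusted p = 0.052), and 156 in limma-voom, and none reversed in any alternative. The cause of these changes was not tested.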

Other observations

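Of 264 members named ZNF, the symbol of a large family of zinc finger genes, 56 fell and 13 rose, with a median log2 fold change of -0.20 against -0.06 over all members. Rises made up 4.92% and falls 21.2% of the list, with 16 rises and 69 falls after the GC correction and 6 to 15 rises and 35 to 63 falls with 1 library left out (the fewest rises without KO 1 and the fewest falls without KO 1). ZNF367 had 12.5, 11.9 and 11.4 FPKM in WT and 5.27, 4.98 and 3.44 FPKM in the libraries labelled A20-KO (log2 fold change -1.39, standard error 0.15, limma adjusted p = 0.00057), and ZNF608 went from 2.23, 2.04 and 1.61 to 0.737, 0.946 and 0.545 FPKM. The rises were led by ZNF467, from 2.89, 3.25 and 4.08 to 8.88, 7.83 and 10.1 FPKM, and ZNF358, from 4.30, 7.52 and 12.2 to 15.4, 14.6 and 21.8 FPKM, whose log2 fold changes of 1.37 and 1.20 came to 0.79 and 0.61 after the GC correction. ZNF358 lost its call without WT 2, KO 1, KO 3 or RE 1 (limma adjusted p up to 0.098). ZNF608, under 1 FPKM in every library labelled A20-KO, is a member only through WT.

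Of 201 solute carrier members 35 rose and 33 fell (median 0.02). Rises made up 17.4% and falls 16.4% of the list, with 39 rises and 52 falls after the GC correction and 27 to 39 rises and 24 to 32 falls with 1 library left out. SLC45A1, a sugar transporter, had 4.91, 5.78 and 6.48 FPKM in WT and 16.1, 15.6 and 18.2 FPKM in the libraries labelled A20-KO (log2 fold change 1.53, standard error 0.13, limma adjusted p = 0.00018). SLC22A31, of the organic ion transporter family, rose from 9.99, 26.7 and 30.9 to 57.7, 54.6 and 75.9 FPKM, with WT library 1 the lowest, and without that library its log2 fold change was 1.11 in place of 1.61. SLC16A14, of the monocarboxylate transporter family, fell from 3.52, 3.69 and 2.89 to 1.26, 1.18 and 0.893 FPKM. SLC22A31 lost its call without KO 3 (limma adjusted p up to 0.053). SLC22A31 came to 1.03 on the log2 scale after the GC correction.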
